A study of Mus musculus with 38 samples.

Results

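Loss of the forkhead factors Foxa1 and Foxa2 together with knockdown of Nkx2-1 was examined in mouse lung adenocarcinoma organoids, by comparing the opposite ends of a factorial experiment. The libraries compared were those labelled with a hairpin against Nkx2-1 (shNKX2-1) and 4-hydroxytamoxifen (4-OHT), 2 libraries, and those labelled with a scrambled hairpin (shScramble) and ethanol vehicle, 2 libraries. They make up 4 of the 38 bulk RNA libraries of the series and were chosen by their labels alone. The single changes came from the other 4 libraries of the same experiment, 2 from shScramble organoids given 4-OHT and 2 from shNKX2-1 organoids given vehicle. Below, the joint change is shNKX2-1 4-OHT against shScramble vehicle, the 4-OHT change is shScramble 4-OHT against shScramble vehicle, and the hairpin change is shNKX2-1 vehicle against shScramble vehicle, each on the log2 scale. All 8 came from line 1027B, an organoid line grown from 1 tumour of a mouse of mixed 129/B6 background, suspended in Matrigel with L-WRN conditioned medium. Every group, the control included, carries floxed Foxa1 and Foxa2 (Foxa1flox, Foxa2flox), the oncogene allele KrasFSF-G12D, p53frt and the inducible recombinase Rosa-FSF-CreERT2. 4-OHT, given at 2 uM for 72 hours, lets CreERT2 excise floxed sequence. No source used here gives the time at which RNA was taken. There is 1 line and, as far as the labels tell, 1 hairpin per target, and nothing in the labels tells if the paired libraries of 1 group came from separate cultures. The p-values therefore measure the spread between these libraries, which may be technical, and 4-OHT or Cre activity itself cannot be told apart from loss of the floxed genes.

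Nkx2-1 is a homeodomain transcription factor that specifies the lung epithelium in the embryo and drives surfactant genes in the alveolar type 2 cell of the adult. Foxa1 and Foxa2 are pioneer factors, forkhead proteins that can bind their sites in closed chromatin, and they share many lung enhancers with Nkx2-1. In mouse lung adenocarcinoma, tumours that lose Nkx2-1 are known to take on a gastric programme that depends on the same forkhead factors. Line 1027B expresses both kinds of factor, so the factorial layout sets the loss of each beside the loss of both.

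Total counts ran from 13589826 to 16262459 counts per library. The mitochondrial share of counts was 4.3% and 11.7% in the shNKX2-1 4-OHT libraries, 2.98% to 3.47% in shScramble 4-OHT, 2.56% to 3.33% in shNKX2-1 vehicle and 2.29% to 2.5% in shScramble vehicle libraries. The shNKX2-1 4-OHT pair also agreed least: the SD of the log2 difference between the 2 libraries was 1.03, against 0.413 to 0.586 in the other 3 groups. The spread within a pair cannot tell which library departs, and limma's quality weights were 0.205 for replicate 1 and 0.197 for replicate 2. Replicate 2 is called the divergent library here for its 11.7% share, and counts are also given without it. Epithelial markers (Epcam, Cdh1, Krt8, Krt18, Krt19) summed to 5360 to 6860 CPM (counts-per-million, with edgeR's TMM factors) in shNKX2-1 4-OHT and 5100 to 6210 CPM in shScramble vehicle. Of the fibroblast markers, 5 of 8 were at 0 in all 8 libraries and the list summed to 0.164 to 0.541 CPM in shNKX2-1 4-OHT, against 0.338 to 0.413 CPM in shScramble vehicle. The leukocyte list (3 of 7 at 0 throughout) summed to 3.11 to 6.5 CPM and 2.63 to 3.95 CPM in the same groups. The endothelial list summed to 0.327 to 0.541 CPM and 0.118 to 0.473 CPM, and all 4 mast cell markers were at 0 in all 8 libraries. The 6 lung lineage markers (Nkx2-1, Sftpa1, Sftpb, Sftpc, Sftpd and Napsa), present in the control, summed to 432 to 816 CPM in shNKX2-1 4-OHT, 2990 to 3150 CPM in shScramble 4-OHT, 3400 to 6330 CPM in shNKX2-1 vehicle and 8380 to 8780 CPM in shScramble vehicle. That sum was mostly Sftpb, at 7080 and 6913 CPM in shScramble vehicle, and not every member followed it. In shScramble 4-OHT, Napsa had 35.6 and 31.1 CPM and Sftpd 338 and 302 CPM. In shScramble vehicle they had 8.49 and 7.36 CPM and 273 and 268 CPM.

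The targeted genes were read first. Nkx2-1 (ENSMUSG00000001496, GRCm38 chr12:56531958-56536908) had 181 and 207 CPM in shNKX2-1 4-OHT, 359 and 408 CPM in shScramble 4-OHT, 350.1 and 279.6 CPM in shNKX2-1 vehicle and 424 and 428 CPM in shScramble vehicle organoids. Both shNKX2-1 4-OHT libraries lay below all 6 others, and the groups averaged 194 ± 18.1 CPM in shNKX2-1 4-OHT, against 426 ± 2.58 CPM in shScramble vehicle (mean ± SD, n = 2 each), a log2 change of -1.13 (SE 0.22, adjusted p = 0.0197) by edgeR's quasi-likelihood test with Benjamini-Hochberg adjustment over 14465 genes. The knockdown seen in RNA was thus partial. With vehicle, the hairpin's log2 change of -0.44 did not pass (adjusted p = 0.755). The joint call on Nkx2-1 was lost when either shScramble vehicle or either shScramble 4-OHT library was left out, while its log2 change stayed within -1.26 to -1.08 over the 8 leave-one-out fits.

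Foxa2 (ENSMUSG00000037025, chr2:148042877-148046969) had 1.89 and 0.327 CPM in shNKX2-1 4-OHT, 2.26 and 2.58 CPM in shScramble 4-OHT, 85.9 and 66.7 CPM in shNKX2-1 vehicle and 89.0 and 76.8 CPM in shScramble vehicle organoids. It was low in all 4 libraries given 4-OHT and in none of the vehicle libraries, and the joint log2 change was -6.16 (SE 0.58, adjusted p = 0.00118). Foxa1 (ENSMUSG00000035451, chr12:57540628-57546916) had 21.9 and 19.7 CPM in shNKX2-1 4-OHT, 20.1 and 18.5 CPM in shScramble 4-OHT, 34.1 and 27.3 CPM in shNKX2-1 vehicle and 32.1 and 22.1 CPM in shScramble vehicle organoids. Its joint log2 change of -0.38 did not pass (adjusted p = 0.398), and the ranges of shNKX2-1 4-OHT and shScramble vehicle did not overlap. Counts here are over whole genes, so a transcript that lacks its floxed exon still counts, and excision of Foxa1 cannot be read from them. In the other double-floxed lines 1027D and 1292B, read at the end, Foxa1 had log2 differences with 4-OHT of -1.61 and -2.27. Its 4-OHT change in line 1027B was -0.49, and the reason for the smaller change was not tested. Foxa3, another forkhead factor of the family that is not floxed here, had 4.2 and 2.37 CPM in shNKX2-1 4-OHT, 2.88 and 1.68 CPM in shScramble 4-OHT, 20.3 and 25.3 CPM in shNKX2-1 vehicle and 13 and 21.1 CPM in shScramble vehicle organoids and a joint log2 change of -2.36 (SE 0.43, adjusted p = 0.0149). That call was lost without shScramble vehicle replicate 2 (log2 changes of -2.88 to -2.02 over the 8 leave-one-out fits).

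**Figure D1:**
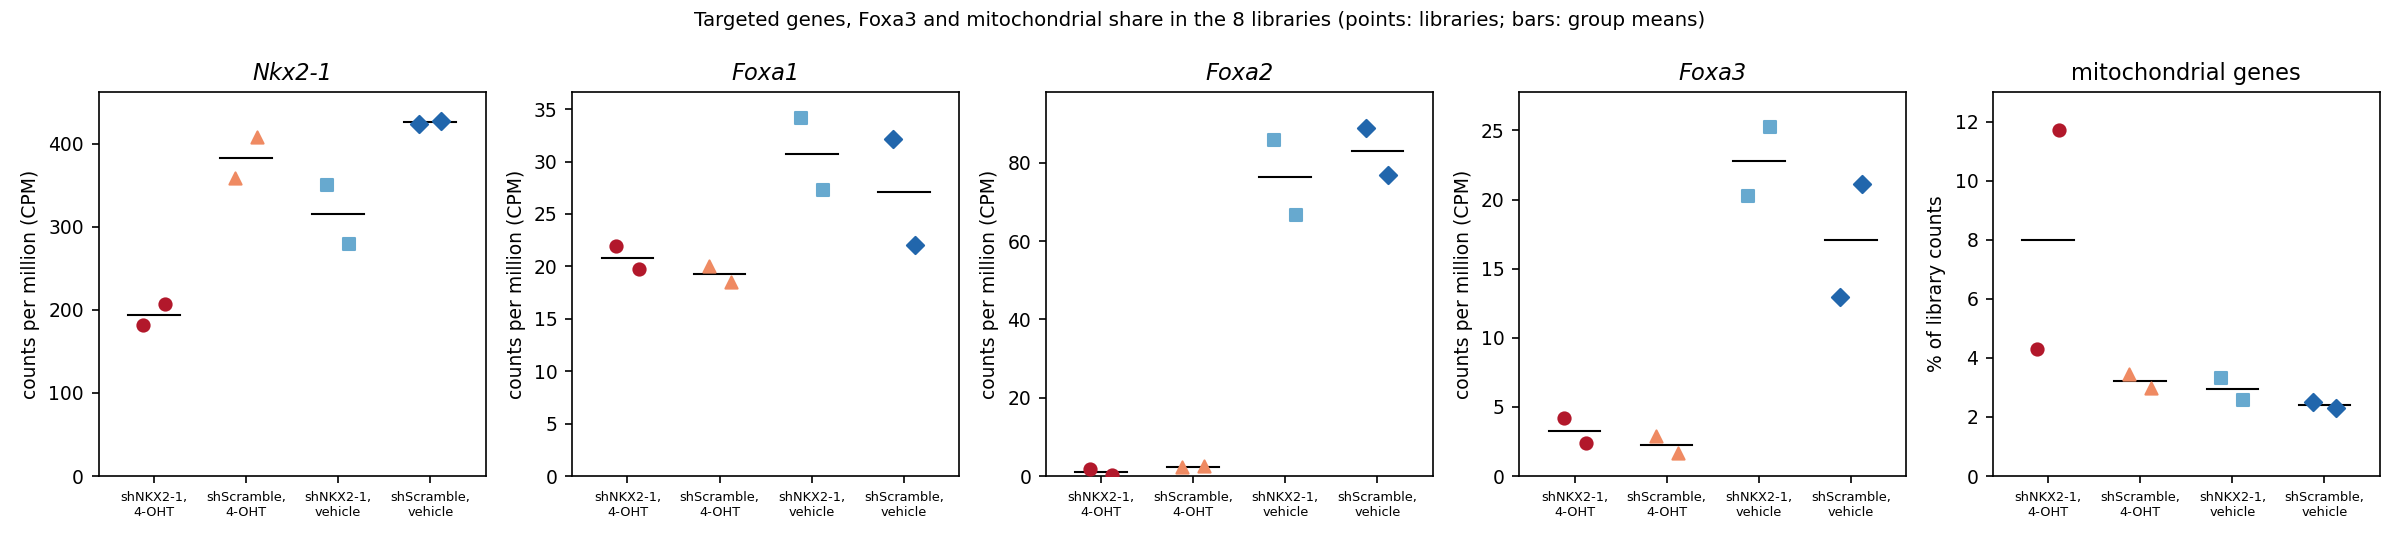
CPM of Nkx2-1, Foxa1, Foxa2 and Foxa3 and the share of counts from mitochondrial genes (%), by library (points) with group means (bars), in the 4 groups. Nkx2-1 is lowest in the 2 shNKX2-1 4-OHT libraries (181 and 207 CPM), Foxa2 is under 3 CPM in all 4 libraries given 4-OHT, and 1 shNKX2-1 4-OHT library has an 11.7% mitochondrial share.

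Genes differed in both directions in the joint change. Of 14465 genes tested, 625 were higher (4.32%) and 525 lower (3.63%) in shNKX2-1 4-OHT than in shScramble vehicle at an adjusted p under 0.05, which is what "called" means below. With the same control libraries, the 4-OHT change under shScramble called 241 genes higher (1.67%) and 386 lower (2.67%), and the hairpin change under vehicle called 30 higher (0.207%) and 4 lower (0.0277%). Of the genes called in the joint change, 371 higher and 335 lower genes changed more than 4-fold, and 152 and 155 more than 16-fold. The divergent library lay further from the control than its partner for 393 of the 625 higher and 344 of the 525 lower genes. The total of 1150 joint calls became 1366 without that library, of which 946 were among the 1150, and 6940 when its partner was left out and it stood alone. A library left alone in its group is assumed to vary like the other groups. The order of the comparisons by number of calls depended on the setting: the joint change and the 4-OHT change called 176 and 2119 genes with limma quality weights, 514 and 1602 when each was fitted on its own 4 libraries, and 1366 and 1655 without the divergent library. The joint count became 354 without shScramble vehicle replicate 1, 316 without shScramble vehicle replicate 2, 632 and 631 without shScramble 4-OHT replicate 1 and replicate 2, and 742 and 745 without shNKX2-1 vehicle replicate 1 and replicate 2. The 627 calls of the 4-OHT change became 243 and 176 without shScramble vehicle replicate 1 and replicate 2, 170 and 138 without shScramble 4-OHT replicate 1 and replicate 2, and 1651 and 1655 without shNKX2-1 4-OHT replicate 1 and replicate 2. The 34 calls of the hairpin change became 0 without either shScramble vehicle library, 8 and 13 without shNKX2-1 vehicle replicate 1 and replicate 2, 22 without shScramble 4-OHT replicate 1, and 275 and 271 without shNKX2-1 4-OHT replicate 1 and replicate 2. In bulk RNA, fewer cells of a kind and less RNA per cell cannot be told apart, which applies to every level below.

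Among the 12 largest increases were secreted proteins, a transporter and a matrix protein. Abcg2 (ENSMUSG00000029802, chr6:58584523-58695676), a drug and urate efflux pump, had 55.2 and 67.2 CPM in shNKX2-1 4-OHT, 4.35 and 3.42 CPM in shScramble 4-OHT, 3.37 and 3.5 CPM in shNKX2-1 vehicle and 0.295 and 0.203 CPM in shScramble vehicle organoids. Each single treatment stood between 3.37 and 4.35 CPM, above the control pair, and the shNKX2-1 4-OHT pair stood above both. The joint log2 change was 7.88 (SE 0.39, adjusted p = 0.000298), and both single changes passed the same edgeR test, with log2 values of 3.91 for 4-OHT and 3.73 for the hairpin that summed to 7.64. Spp1, the secreted glycoprotein osteopontin, had 1161 and 1806 CPM in shNKX2-1 4-OHT, 191 and 346 CPM in shScramble 4-OHT, 258 and 183 CPM in shNKX2-1 vehicle and 36.6 and 48.6 CPM in shScramble vehicle organoids, again with both single treatments between the ends. Its joint log2 change of 5.12 (SE 0.43, adjusted p = 0.000788) stood beside a sum of 5.03. Chil1, a chitinase-like secreted protein, had 91.2 and 63.8 CPM in shNKX2-1 4-OHT, 13.2 and 14.1 CPM in shScramble 4-OHT, 4.25 and 1.56 CPM in shNKX2-1 vehicle and 0.413 and 0.135 CPM in shScramble vehicle organoids, the same staircase at lower levels, with a joint log2 change of 8.07 (SE 0.65, adjusted p = 0.000695) and a sum of 8.88.

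Other large increases stood high under 4-OHT with either hairpin. Epas1, which encodes the oxygen-regulated factor HIF-2 alpha, had 20.8 and 19.9 CPM in shNKX2-1 4-OHT, 21.0 and 23.7 CPM in shScramble 4-OHT, 2.56 and 1.44 CPM in shNKX2-1 vehicle and 0.295 and 0.27 CPM in shScramble vehicle organoids. All 4 libraries with 4-OHT lay within 19.9 and 23.7 CPM, so the joint log2 change of 6.13 (SE 0.43, adjusted p = 0.000478) was close to the 4-OHT change of 6.26. The hairpin change of 2.78 did not pass (adjusted p = 0.0661). The joint change minus the sum was -2.91 (SE 0.54, unadjusted p = 0.000572) and did not pass either (adjusted p = 0.348). Cldn3, a tight junction claudin, had 81.7 and 24.0 CPM in shNKX2-1 4-OHT, 131 and 157 CPM in shScramble 4-OHT and at most 1.9 CPM in the 4 vehicle libraries. Its joint log2 change was 6.38 (SE 0.66, adjusted p = 0.00153). Ly6d, a surface protein of squamous epithelium and lymphoid progenitors, and the signalling scaffold Fam83a had joint log2 changes of 5.25 and 5.36 beside 4-OHT changes of 4.84 and 4.62.

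Lcn2, the iron-scavenging lipocalin of injured epithelium, and the clade B serpins leaned towards the hairpin. Lcn2 had 2995 and 1015 CPM in shNKX2-1 4-OHT, 259 and 122 CPM in shScramble 4-OHT, 777 and 570.3 CPM in shNKX2-1 vehicle and 59.9 and 56.2 CPM in shScramble vehicle organoids. The shNKX2-1 vehicle pair exceeded the shScramble 4-OHT pair, and both shNKX2-1 4-OHT libraries exceeded all others. The joint log2 change was 5.11 (SE 0.61, adjusted p = 0.00265), whereas neither single change passed (4-OHT 1.71, adjusted p = 0.145, and hairpin 3.54, adjusted p = 0.0674). Serpinb7 and Serpinb11 had 22.3 and 52.0 CPM and 47.5 and 84.0 CPM in shNKX2-1 4-OHT, against 1.18 and 0.81 CPM and 2.18 and 1.76 CPM in shScramble vehicle, with joint log2 changes of 5.2 and 5.05. Serpins of this cluster are close paralogs, so the copy of origin of some reads is uncertain. The remaining increases named were Fbln2, a matrix fibulin, at 5.47, and the zinc finger gene Zfp820 at 5.04. All 12 of these increases were also called in each of the 8 leave-one-out fits, in which log2 changes ran over 4.13 to 7.82 for Zfp820, 5.2 to 6.98 for Cldn3, 7.47 to 9.07 for Chil1 and 4.09 to 5.66 for Lcn2. The highest values of Zfp820 and Chil1 came without shScramble vehicle replicate 1, and the lowest of Cldn3 and Lcn2 without shNKX2-1 4-OHT replicate 1.

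**Figure D2:**
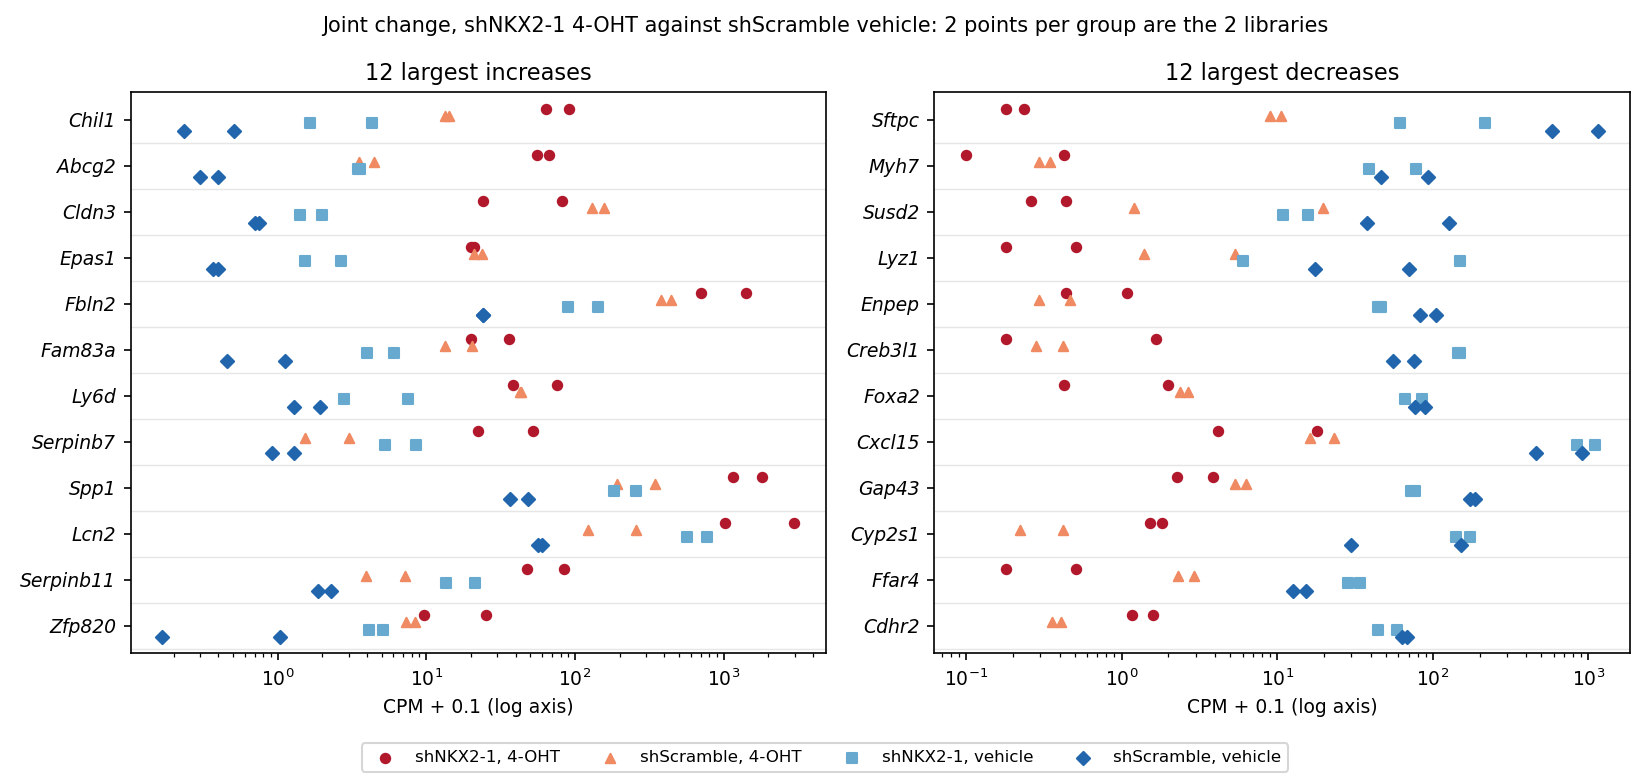
CPM plus 0.1 on log axes for the 12 largest called increases (left) and decreases (right) in the joint change, with 2 points per group for the 2 libraries. Abcg2, Spp1 and Chil1 stand lowest in shScramble vehicle and highest, at 55.2 and 67.2, 1161 and 1806, and 91.2 and 63.8 CPM, in shNKX2-1 4-OHT, while Enpep, Creb3l1 and Cyp2s1 are low in all 4 libraries given 4-OHT.

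The largest decrease was that of Sftpc (ENSMUSG00000022097, chr14:70520949-70524081), a surfactant protein specific to alveolar type 2 cells in the adult lung. It had 0.135 and 0.0818 CPM in shNKX2-1 4-OHT, 10.5 and 8.91 CPM in shScramble 4-OHT, 61.8 and 218 CPM in shNKX2-1 vehicle and 584 and 1157 CPM in shScramble vehicle organoids. The groups did not overlap and lay in that order from lowest to highest. Only 3 reads were counted in the 2 shNKX2-1 4-OHT libraries together, against 27033 in shScramble vehicle, which makes the shNKX2-1 4-OHT level 0.000131 of the control level (95% exact counting interval 2.69e-05 to 0.000382, counting error only). The fitted joint log2 change of -12.83 (SE 0.98, adjusted p = 0.000656) compares with -6.48 for 4-OHT (adjusted p = 0.00221) and -2.64 for the hairpin (adjusted p = 0.14).

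The other large decreases are set beside their 4-OHT changes, which share the control libraries. Enpep, the membrane peptidase glutamyl aminopeptidase, had 0.338 and 0.982 CPM in shNKX2-1 4-OHT, 0.367 and 0.194 CPM in shScramble 4-OHT, 46.3 and 44.2 CPM in shNKX2-1 vehicle and 83.2 and 106 CPM in shScramble vehicle organoids. All 4 libraries with 4-OHT lay under 1 CPM, for a joint log2 change of -7.18 (SE 0.46, adjusted p = 0.000432). Cxcl15, a chemokine that in mouse is made by lung epithelium, had 17.9 and 4.09 CPM in shNKX2-1 4-OHT, against 458 and 918 CPM in shScramble vehicle, a log2 change of -5.96 (SE 0.73, adjusted p = 0.00286), with 23.1 and 16.1 CPM in shScramble 4-OHT and 851 and 1103 CPM in shNKX2-1 vehicle. Creb3l1, a membrane-bound transcription factor of secretory cells, Gap43, a growth cone protein of neurons, Cyp2s1, a cytochrome P450, and Cdhr2, a cadherin of the intestinal brush border, had joint log2 changes of -6.23, -5.94, -5.85 and -5.68. Their 4-OHT changes were -7.97, -4.97, -8.63 and -7.83, all called. Myh7, a cardiac and slow muscle myosin whose reads may be shared with Myh6, stood at -8.79 beside -8.26. Over the 8 leave-one-out fits the joint log2 change ran over -13.10 to -7.74 for Myh7, lowest without the divergent library. It ran over -9.53 to -5.41 for Creb3l1, lowest without shNKX2-1 4-OHT replicate 1, and over -6.60 to -4.31 for Cyp2s1, lowest without shScramble vehicle replicate 1 and highest without shScramble vehicle replicate 2.

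Ffar4, a receptor for long-chain fatty acids, was lowest with both treatments. It had 0.406 and 0.0818 CPM in shNKX2-1 4-OHT, 2.82 and 2.19 CPM in shScramble 4-OHT, 28.5 and 34.2 CPM in shNKX2-1 vehicle and 15.3 and 12.6 CPM in shScramble vehicle organoids, so the hairpin pair lay above the control pair with vehicle and below the shScramble pair with 4-OHT. The joint log2 change was -5.72 (SE 0.52, adjusted p = 0.000954) beside a sum of -1.31. The difference of -4.42 (SE 0.65) had an unadjusted p of 0.00011 and did not pass (adjusted p = 0.16). Susd2, a sushi domain membrane protein, and Lyz1, a lysozyme with the near-identical copy Lyz2, completed the 12 with fitted log2 changes of -8.28 and -7.37. Susd2 lost its call without the divergent library (adjusted p = 0.0571) and without shScramble vehicle replicate 2. Lyz1 lost its own in 6 of the 8 leave-one-out fits, the fit without the divergent library (adjusted p = 0.161) among them. The other 10 decreases, Foxa2 included, were called in all 8.

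Promoter windows of 300 bases (RefSeq, GRCm38.p6, 250 bases before to 50 after the gene start) were searched for the core letters of forkhead and Nkx2 factors. The letters searched on both strands were TGTTTAC and TATTTAC for forkhead proteins and CAAGTG for Nkx2 proteins, and neither kind contains the other. Forkhead letters occurred in 5.98% of 518 windows of genes called lower, 4.91% of 591 windows of genes called higher, and 4.47% of the 12781 windows of all genes tested that matched the table. Nkx2 letters occurred in 12.5%, 11% and 11.2% of the same windows. The shares among called genes thus lay within 2 percentage points of the background, and a match in these letters is a description, not a binding site. The windows printed are those of Cxcl15 (chr5:90794284-90794583, plus strand), the decrease above with forkhead letters, Enpep (chr3:129332700-129332999, minus strand), a decrease with Nkx2 letters, and Sftpb (chr6:72304360-72304659, plus strand), a surfactant gene described next with neither, each read 5′ to 3′ on the gene's strand with matched letters in capitals.
Cxcl15: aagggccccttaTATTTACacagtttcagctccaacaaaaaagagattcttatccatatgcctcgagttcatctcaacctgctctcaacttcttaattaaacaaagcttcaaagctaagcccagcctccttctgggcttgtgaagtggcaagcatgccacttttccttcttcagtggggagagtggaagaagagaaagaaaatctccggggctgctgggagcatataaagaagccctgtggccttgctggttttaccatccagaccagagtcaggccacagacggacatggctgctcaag
Enpep: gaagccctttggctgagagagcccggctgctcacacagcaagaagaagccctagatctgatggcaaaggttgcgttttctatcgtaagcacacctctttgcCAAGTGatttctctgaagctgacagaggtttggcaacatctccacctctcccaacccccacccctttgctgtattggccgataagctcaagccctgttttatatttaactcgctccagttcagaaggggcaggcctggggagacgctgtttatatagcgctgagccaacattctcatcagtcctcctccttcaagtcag
Sftpb: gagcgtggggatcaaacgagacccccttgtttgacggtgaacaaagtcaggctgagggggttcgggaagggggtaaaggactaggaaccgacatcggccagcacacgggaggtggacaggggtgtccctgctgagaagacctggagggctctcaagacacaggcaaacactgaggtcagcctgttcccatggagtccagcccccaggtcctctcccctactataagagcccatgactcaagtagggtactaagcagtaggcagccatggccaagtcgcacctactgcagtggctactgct

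Many alveolar type 2 genes were lower in the joint change. Of 21 members tested, 12 were called lower and 2 higher, against 3.63% and 4.32% of all genes, and 12 and 2 were likewise called without the divergent library. The 4-OHT change called 6 lower and 1 higher, and the hairpin change called none. The median log2 change of the 21 was -2.19 in the joint change, -0.51 for 4-OHT, -0.83 for the hairpin and -1.2 for the sum, where all genes had medians of 0.03, 0.02, 0.01 and 0.02. DESeq2 called 16 of the members and limma 5. Sftpb (ENSMUSG00000056370, chr6:72304610-72314371), the surfactant protein without which newborn lungs collapse, had 233 and 101 CPM in shNKX2-1 4-OHT, 2405 and 2239 CPM in shScramble 4-OHT, 5368 and 2522 CPM in shNKX2-1 vehicle and 7080.4 and 6913 CPM in shScramble vehicle organoids. Both shNKX2-1 4-OHT libraries lay far below every other library. The joint log2 change was -5.39 (SE 0.55, adjusted p = 0.00152), against -1.59 for 4-OHT and -0.83 for the hairpin, neither of which passed (adjusted p = 0.122 and 0.828).

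Sfta2, a small secreted protein of the same cells, had 9.47 and 5.32 CPM in shNKX2-1 4-OHT, 103 and 102 CPM in shScramble 4-OHT, 56.6 and 48.8 CPM in shNKX2-1 vehicle and 97.0 and 92.9 CPM in shScramble vehicle organoids. The single treatments left it at or above 48.8 CPM, while the shNKX2-1 4-OHT pair stayed under 10 CPM. Its joint log2 change was -3.68 (SE 0.31, adjusted p = 0.000767), and the sum of the single changes was -0.74. The difference of -2.93 (SE 0.40) had an unadjusted p of 6.49e-05 and did not pass (adjusted p = 0.159). Lgi3, a secreted leucine-rich repeat protein, had 2.77 and 2.7 CPM in shNKX2-1 4-OHT, 18.4 and 22.7 CPM in shScramble 4-OHT, 28.1 and 49.7 CPM in shNKX2-1 vehicle and 44.9 and 94.7 CPM in shScramble vehicle organoids and a joint log2 change of -4.67 (SE 0.47, adjusted p = 0.00149) beside a sum of -2.60. The other members called lower were Sftpc and Cxcl15, described above, Lyz2, with no read in shNKX2-1 4-OHT and 6.54 and 6.89 CPM in shScramble vehicle, and Sftpa1, Napsa, Lamp3, S100g, Dram1 and Slc26a9, at log2 changes from -6.27 to -1.31. Sftpd, a lung collectin, had 401 and 123 CPM in shNKX2-1 4-OHT, against 273 and 268 CPM in shScramble vehicle, and its log2 change of -0.04 did not pass (adjusted p = 0.961). Chil1 and Ank3, a membrane scaffold ankyrin at 1.39, were the members called higher. The call of Ank3 was lost without shScramble vehicle replicate 2, and its log2 change ran over 1.13 to 1.61 in the 8 leave-one-out fits.

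Alveolar type 1 genes, which mark the thin gas-exchange cell, were lower in part. Joint values lay beyond the sum of the single changes for some and not for others, and no such difference passed adjustment. Of 18 tested, 7 were called lower and 1 higher (3.63% and 4.32% of all genes), and 7 and 1 were likewise called without the divergent library, while the 4-OHT change called 2 lower and the hairpin change called none. The median log2 change was -1.37 in the joint change, 0.13 for 4-OHT, -0.65 for the hairpin and -0.73 for the sum. DESeq2 called 13 members and limma 1. Ager, the receptor RAGE, had 17.1 and 2.54 CPM in shNKX2-1 4-OHT, 436 and 440.0 CPM in shScramble 4-OHT, 160.2 and 71.3 CPM in shNKX2-1 vehicle and 318 and 271 CPM in shScramble vehicle organoids. Its libraries under 4-OHT alone were the highest of the 8 and those under 4-OHT with the hairpin the lowest, at a joint log2 change of -4.90 (SE 0.80, adjusted p = 0.00966). The sum of the single changes was -0.77. The difference of -4.12 (SE 1.00) had an unadjusted p of 0.00298 and did not pass (adjusted p = 0.463). Clic5, an intracellular channel protein, had 28.9 and 13.2 CPM in shNKX2-1 4-OHT, 118 and 108 CPM in shScramble 4-OHT, 186 and 116 CPM in shNKX2-1 vehicle and 339 and 297 CPM in shScramble vehicle organoids and a joint log2 change of -3.92 (SE 0.42, adjusted p = 0.0018), with both single changes at or above -1.50. Hopx, a homeodomain cofactor, had 18.7 and 7.61 CPM in shNKX2-1 4-OHT, against 91.4 and 76.6 CPM in shScramble vehicle and a joint change of -2.67, and Rtkn2, another gene of the list, had 0.88 and 1.64 CPM in shNKX2-1 4-OHT, against 6.37 and 6.42 CPM in shScramble vehicle and a change of -2.35. Scnn1g, a sodium channel subunit, had a joint change of -4.22 beside a sum of -1.51. Rtkn2, the angiogenic factor Vegfa and the claudin Cldn18 did not go clearly beyond their sums, with joint changes of -2.35, -1.99 and -1.61 beside -2.61, -1.88 and -2.52. Cav1, the caveolar coat protein, went the other way at 285 and 209.7 CPM in shNKX2-1 4-OHT, 190.3 and 132 CPM in shScramble 4-OHT, 92.2 and 41.2 CPM in shNKX2-1 vehicle and 64.3 and 47.2 CPM in shScramble vehicle organoids, a joint log2 change of 2.15 (SE 0.41, adjusted p = 0.018). The joint calls of Ager, Hopx, Rtkn2 and Cav1 were lost when either shScramble vehicle library was left out (log2 changes of -6.89 to -4.14, -3.50 to -2.20, -2.88 to -2.0 and 1.87 to 2.38 over the 8 fits).

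**Figure D3:**
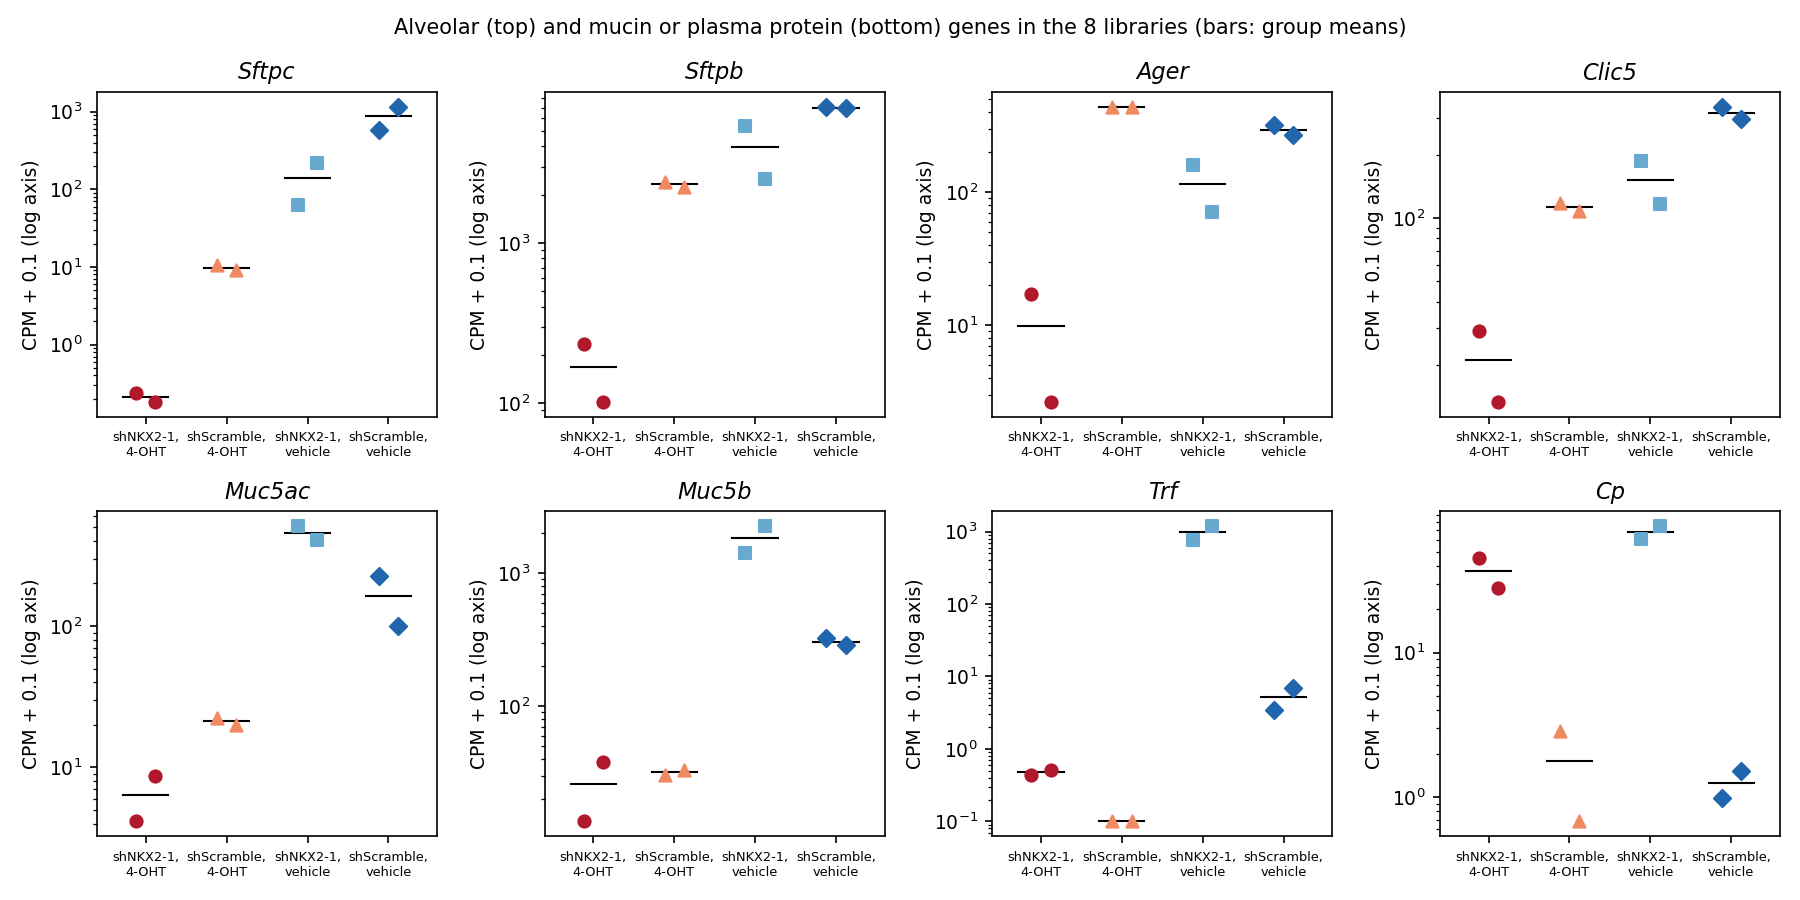
CPM plus 0.1 on log axes in the 8 libraries (points) with group means (bars), for 4 alveolar genes (top) and 4 mucin or plasma protein genes (bottom). The alveolar genes are lowest in both shNKX2-1 4-OHT libraries, Muc5ac, Muc5b and Trf are highest in shNKX2-1 vehicle and low in all 4 libraries given 4-OHT, and Cp is high in both shNKX2-1 groups.

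Transcription factors of the lung lineage and its growing tip were lower in part. Of 18 tested, 6 were called lower (5 without the divergent library, 6 by DESeq2 and 1 by limma, 3.63% of all genes): Nkx2-1 itself, the forkhead repressors Foxp1 and Foxp2, Cebpa, a driver of type 2 cell maturation, Irx1 and Mycn. Foxp2 had 1.15 and 0.409 CPM in shNKX2-1 4-OHT, 0.49 and 0.645 CPM in shScramble 4-OHT, 26.1 and 26.2 CPM in shNKX2-1 vehicle and 16.1 and 14.7 CPM in shScramble vehicle organoids, which placed it with the genes low in all 4 libraries given 4-OHT, at a joint log2 change of -4.25 (SE 0.44, adjusted p = 0.00157). Irx1, an Iroquois homeobox factor, had 0.338 and 0.164 CPM in shNKX2-1 4-OHT, 1.53 and 0.516 CPM in shScramble 4-OHT, 0.293 and 0.5 CPM in shNKX2-1 vehicle and 9.49 and 7.5 CPM in shScramble vehicle organoids. It was low in each of the 3 groups given 4-OHT, the hairpin or both, with called log2 changes of -5.00 in the joint change, -3.04 for 4-OHT and -4.38 for the hairpin. Mycn, a Myc-family factor of embryonic lung buds, had 32.3 and 10.1 CPM in shNKX2-1 4-OHT, against 136 and 81.7 CPM in shScramble vehicle and a log2 change of -2.35 (SE 0.55, adjusted p = 0.039). That call was lost in 7 of the 8 leave-one-out fits.

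Gastric genes were lower in the joint change much as under 4-OHT alone, while the hairpin alone gave a median above 0. Of 13 tested, 8 were called lower in the joint change (7 without the divergent library, 9 by DESeq2 and 1 by limma, 3.63% of all genes), 9 lower for 4-OHT, and 1 higher for the hairpin (Sult1c2). The median log2 change was -3.52 in the joint change, -3.91 for 4-OHT and 1.49 for the hairpin. Muc5ac, the gel-forming mucin of the stomach surface, had 4.06 and 8.59 CPM in shNKX2-1 4-OHT, 22.2 and 20.01 CPM in shScramble 4-OHT, 509.8 and 405 CPM in shNKX2-1 vehicle and 225 and 100.2 CPM in shScramble vehicle organoids. The hairpin pair lay above the control pair with vehicle and below the shScramble pair with 4-OHT, at a joint log2 change of -4.69 (SE 0.50, adjusted p = 0.00185) beside a sum of -1.46. The difference of -3.23 (SE 0.63) had an unadjusted p of 0.000788 and did not pass (adjusted p = 0.38). Gkn2, a gastrokine, and Tff1, a trefoil peptide, had no read in any library given 4-OHT. In shNKX2-1 vehicle they had 5.93 and 9.45 CPM and 34.2 and 24.2 CPM. Their hairpin log2 changes of -1.35 and -1.11, opposite in sign to the list median, did not pass edgeR's test (adjusted p = 0.373 and 0.863). At a floor of 3 counts over the group they were at least 178-fold and at least 590-fold lower in shNKX2-1 4-OHT than in shScramble vehicle, where they had 21.5 and 17.8 CPM and 101 and 24.8 CPM. Vsig1, a stomach adhesion protein, had 0 and 0.327 CPM in shNKX2-1 4-OHT, 0.122 and 0 CPM in shScramble 4-OHT, 40.5 and 44.4 CPM in shNKX2-1 vehicle and 19.9 and 13.8 CPM in shScramble vehicle organoids and a joint log2 change of -6.73 (SE 0.77, adjusted p = 0.00232). Gkn3, with no read in any library given 4-OHT, and Ctse, Anxa10 and Vil1, at log2 changes from -3.52 to -2.57, were the other members called lower.

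Some regulators of gut and liver identity were low in both 4-OHT groups. Hnf4a, the nuclear receptor of hepatic and intestinal epithelium, had 7.58 and 4.42 CPM in shNKX2-1 4-OHT, 10.3 and 8.84 CPM in shScramble 4-OHT, 206 and 163 CPM in shNKX2-1 vehicle and 165 and 107 CPM in shScramble vehicle organoids, a joint log2 change of -4.49 (SE 0.37, adjusted p = 0.000716). All 4 libraries with 4-OHT lay far below all 4 with vehicle. Foxa3, given above, was also called lower. Among 12 intestinal genes, 4 were called lower and 2 higher (4 and 3 without the divergent library), where 3.63% and 4.32% of all genes were. DESeq2 called 7 and limma 1 of the 12. Lgals4, a gut galectin, had 2.84 and 0.491 CPM in shNKX2-1 4-OHT, against 136 and 30.6 CPM in shScramble vehicle and a log2 change of -5.60 (SE 0.92, adjusted p = 0.01), and the goblet cell mucin Muc2 had 0.271 and 0.491 CPM in shNKX2-1 4-OHT, against 2.59 and 22.8 CPM in shScramble vehicle and one of -5.05 (SE 1.08, adjusted p = 0.0275). Cdhr2 and the surface peptidase Dpp4 (-1.30) were the other decreases, and the intestinal cadherin Cdh17 (3.04) and the A33 antigen Gpa33 (1.01) the increases. The calls of Dpp4 and Gpa33 were each lost in 6 of the 8 leave-one-out fits, that of Cdh17 without either shScramble vehicle library, and that of Muc2 without the divergent library or shScramble vehicle replicate 2.

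Secreted plasma proteins, which liver and some gut-like tumours make, were divided. Of 14 tested, 5 were called lower and 3 higher in the joint change (2 and 2 without the divergent library, 3.63% and 4.32% of all genes), 6 lower for 4-OHT, and 4 higher for the hairpin (Trf, Itih2, Itih4 and Cp). DESeq2 called 9 and limma 1 of the 14. The median log2 change was -2.68 in the joint change, or -1.69 with genes at 0 counts set to their bound. Trf, which encodes transferrin, had 0.338 and 0.409 CPM in shNKX2-1 4-OHT, 0 and 0 CPM in shScramble 4-OHT, 775 and 1195 CPM in shNKX2-1 vehicle and 3.36 and 6.89 CPM in shScramble vehicle organoids. The hairpin alone gave a log2 change of 7.59 (adjusted p = 0.00442), yet with 4-OHT the hairpin pair had 0.338 and 0.409 CPM, below the control, at a joint log2 change of -3.75 (SE 0.54, adjusted p = 0.00815). Itih2, a hyaluronan-binding inhibitor chain, had 48.7 and 33.8 CPM in shNKX2-1 vehicle and 1 read in all in shNKX2-1 4-OHT, where its level was 0.0512 of that in shScramble vehicle (95% exact counting interval 0.00124 to 0.315). Rbp4, the retinol carrier, had 2 reads in shNKX2-1 4-OHT, a level of 0.00474 of the control (interval 0.000573 to 0.0172). The clotting factor F5 and transthyretin (Ttr) were also called lower. The joint calls of Itih2 and F5 were both lost without the divergent library, without either shScramble vehicle library and without shNKX2-1 vehicle replicate 2, and that of Itih2 also without shNKX2-1 vehicle replicate 1 (log2 changes of -6.47 to -3.29 and -5.10 to -3.46 over the 8 fits).

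Cp and Pigr did not follow that course. Cp, the copper ferroxidase ceruloplasmin, had 45.3 and 27.7 CPM in shNKX2-1 4-OHT, 2.75 and 0.581 CPM in shScramble 4-OHT, 60.6 and 75.0 CPM in shNKX2-1 vehicle and 0.884 and 1.42 CPM in shScramble vehicle organoids. Both shNKX2-1 pairs were high and both shScramble pairs low, whatever the treatment, with a joint log2 change of 4.99 (SE 0.64, adjusted p = 0.00408), 5.88 for the hairpin (adjusted p = 0.0134) and 0.55 for 4-OHT. The joint call was lost without shScramble vehicle replicate 1. Complement C3 had 1249.7 and 783 CPM in shNKX2-1 4-OHT, 347 and 281 CPM in shScramble 4-OHT, 276 and 309 CPM in shNKX2-1 vehicle and 63.5 and 191 CPM in shScramble vehicle organoids, a joint log2 change of 3.0 (SE 0.50, adjusted p = 0.0109). Its 4-OHT change of 1.30 (adjusted p = 0.226) and hairpin change of 1.2 (adjusted p = 0.561) did not pass. Itih4 was the other plasma protein called higher. Pigr, the receptor that carries immunoglobulin A across secretory epithelium, had 160.2 and 49.9 CPM in shNKX2-1 4-OHT, 10.7 and 10.5 CPM in shScramble 4-OHT, 375 and 493 CPM in shNKX2-1 vehicle and 1.95 and 15.1 CPM in shScramble vehicle organoids and a joint log2 change of 3.63 (SE 0.86, adjusted p = 0.0402), a call lost in 5 of the 8 leave-one-out fits.

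Airway secretory genes held calls in both directions. Of 10 tested, 2 were called higher (Lcn2 and Pigr) and 2 lower (Muc5b and Cbr2), with and without the divergent library, where 4.32% and 3.63% of all genes were. DESeq2 called 4 and limma 2 of the 10. Muc5b, the airway mucin, had 13.5 and 37.9 CPM in shNKX2-1 4-OHT, 30.2 and 33.1 CPM in shScramble 4-OHT, 1425 and 2264 CPM in shNKX2-1 vehicle and 324 and 286 CPM in shScramble vehicle organoids. The hairpin pair was above the control with vehicle, and all 4 libraries given 4-OHT were below 40 CPM. The joint log2 change was -3.57 (SE 0.49, adjusted p = 0.00507) and the sum -0.67. The difference of -2.90 (SE 0.64, unadjusted p = 0.00167) did not pass (adjusted p = 0.447). Cbr2, a carbonyl reductase of club cells, had 1 read in shNKX2-1 4-OHT and a level of 0.000906 of that in shScramble vehicle (95% exact counting interval 2.29e-05 to 0.00506). The median log2 change of the 10 was -0.20 in the joint fit and 0.02 with genes at 0 counts set to their bound, so its sign depends on that setting.

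Some squamous and basal genes, products of stratified epithelium, were higher. Of 14 tested, 5 were called higher (3 without the divergent library, 5 by DESeq2 and 0 by limma, 4.32% of all genes) and the median log2 change was 1.66, against 0.75 for 4-OHT and 0.27 for the hairpin. Ivl, the cornified envelope protein involucrin, had 141 and 166 CPM in shNKX2-1 4-OHT, 79.8 and 44 CPM in shScramble 4-OHT, 38.4 and 27.4 CPM in shNKX2-1 vehicle and 39.7 and 34.5 CPM in shScramble vehicle organoids. The shNKX2-1 4-OHT pair stood above all other libraries, at a joint log2 change of 2.05 (SE 0.33, adjusted p = 0.00883) beside a sum of 0.57. Krt4, a keratin of wet stratified epithelium, had 10.2 and 18.3 CPM in shNKX2-1 4-OHT, 0.367 and 0.129 CPM in shScramble 4-OHT, 5.2 and 15.0 CPM in shNKX2-1 vehicle and 1.83 and 0.608 CPM in shScramble vehicle organoids and a joint change of 3.52 (SE 0.71, adjusted p = 0.0227), with its 4 libraries of shNKX2-1 above those of shScramble. Trp63, the basal cell master regulator, remained low at 3.45 and 4.01 CPM in shNKX2-1 4-OHT, against 0.766 and 0.54 CPM in shScramble vehicle, a change of 2.49 (SE 0.54, adjusted p = 0.0287). Krt6b, a keratin of wounded epidermis, was 35.7 times the control level (95% exact counting interval 11.8 to 176), with 91 reads against 3, and Sprr1a was the remaining call. The 4-OHT change called 2 members higher, Krt14 and Krt16. Krt14, a defining keratin of basal cells, had 1.22 and 0.573 CPM in shNKX2-1 4-OHT, 16.3 and 19.2 CPM in shScramble 4-OHT, 0.439 and 0.438 CPM in shNKX2-1 vehicle and 0.413 and 0.203 CPM in shScramble vehicle organoids, so the shScramble 4-OHT pair stood above all others. Its 4-OHT log2 change was 5.79 (adjusted p = 0.00166), and its joint change of 1.52 did not pass (adjusted p = 0.142). The difference from the sum was -4.76 (SE 0.77, unadjusted p = 0.000217) and did not pass (adjusted p = 0.241). The calls of Ivl and Krt4 were lost without either shScramble vehicle library, that of Krt6b in 5 and that of Trp63 in 6 of the 8 leave-one-out fits.

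Genes of antigen presentation and cytokine signalling were called in small numbers, nearly all of them higher. Of 12 antigen presentation genes, 4 were called higher (5 without the divergent library, 5 by DESeq2 and 2 by limma, 4.32% of all genes). H2-Ab1 and H2-Aa, chains of the class II complex that presents peptides to helper T cells, had 4.53 and 7.69 CPM and 3.11 and 5.32 CPM in shNKX2-1 4-OHT, 2.94 and 2.26 CPM and 2.02 and 1.36 CPM in shScramble 4-OHT, and no read in shScramble vehicle. They were at least 63.1-fold and at least 43.5-fold higher in shNKX2-1 4-OHT at the floor of 3 counts. Cd74, their invariant chain, had 172 and 103 CPM in shNKX2-1 4-OHT, 154 and 130.4 CPM in shScramble 4-OHT, 31.8 and 78.3 CPM in shNKX2-1 vehicle and 16.9 and 41.7 CPM in shScramble vehicle organoids, a joint log2 change of 2.23 (SE 0.54, adjusted p = 0.0427), and Psmb8, an immunoproteasome subunit, one of 3.17. Under 4-OHT alone H2-Ab1 and H2-Aa were at least 27.6-fold and at least 18-fold higher than the control, and the log2 changes of Cd74 and Psmb8 were 2.28 (adjusted p = 0.0577) and 3.62 (adjusted p = 0.00992). Leukocyte markers, as given above, summed to at most 6.5 CPM in shNKX2-1 4-OHT, and their part in the class II values was not tested. The Cd74 call was lost without any 1 of the 4 shScramble libraries, and that of Psmb8 without either shScramble vehicle library.

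Of 18 NF-kB and chemokine genes, 5 were called higher (7 higher and 1 lower without the divergent library, 8 in all by DESeq2 and 1 by limma, 4.32% of all genes). Csf2, the growth factor GM-CSF, had 9.74 and 9.25 CPM in shNKX2-1 4-OHT, 5.14 and 4.91 CPM in shScramble 4-OHT, 2.56 and 2.06 CPM in shNKX2-1 vehicle and 1.3 and 1.55 CPM in shScramble vehicle organoids, a log2 change of 2.73 (SE 0.35, adjusted p = 0.00417). Cxcl1, a neutrophil chemokine, had 67.5 and 65.5 CPM in shNKX2-1 4-OHT, against 15.2 and 27.1 CPM in shScramble vehicle, a change of 1.65 (SE 0.31, adjusted p = 0.0182). The groups did not overlap for either gene. The macrophage growth factor Csf1 (1.92), the monocyte chemokine Ccl2 (4.21, at 4.87 and 1.23 CPM in shNKX2-1 4-OHT and 0.118 and 0.203 CPM in shScramble vehicle) and Tnfaip2 were the other calls. Of 20 interferon response genes, 4 were called higher and 1 lower (3 and 1 without the divergent library, 7 in all by DESeq2 and 0 by limma, 4.32% and 3.63% of all genes). Ddx58, the RNA sensor RIG-I, had 50.3 and 59.1 CPM in shNKX2-1 4-OHT, 43.5 and 35.9 CPM in shScramble 4-OHT, 12.6 and 12.6 CPM in shNKX2-1 vehicle and 22.9 and 27.4 CPM in shScramble vehicle organoids, below the control under the hairpin alone and above it with 4-OHT, at a joint log2 change of 1.12 (SE 0.23, adjusted p = 0.0255). Oasl2 was 46.5 times the control level (95% exact counting interval 12.4 to 390.0) and Cmpk2 12.9 times (4.06 to 66.0), Ifi44 was at least 16.9-fold higher, and the antiviral GTPase Mx1 was lower at -1.54. Under 4-OHT alone Oasl2 was 21.5 times (5.59 to 183) and Cmpk2 50.9 times (17.1 to 250) the control level. Mx1 changed by -2.21 there, and all of these were called. Oasl2, Cmpk2 and Ifi44 stood at or under 3.52 CPM in shNKX2-1 4-OHT. Calls of Csf1, Ccl2, Ddx58, Cmpk2 and Mx1 were each lost in at least 4 of the 8 leave-one-out fits, that of Ifi44 in 3, and those of Cxcl1 and Oasl2 without shScramble vehicle replicate 1.

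Mitochondrially encoded genes were led by the divergent library. Of 13 tested, 3 subunits of respiratory complex I were called higher, mt-Nd1, mt-Nd2 and mt-Nd4 (4.32% of all genes). All 13 had an unadjusted p under 0.05, and DESeq2 called 13 and limma 0. mt-Nd2 had 4222 and 21625 CPM in shNKX2-1 4-OHT, 3465 and 3015 CPM in shScramble 4-OHT, 2259.5 and 1784 CPM in shNKX2-1 vehicle and 1987 and 1435 CPM in shScramble vehicle organoids. Replicate 2 of shNKX2-1 4-OHT stood far above replicate 1, which itself lay above all other libraries. The joint log2 change was 2.92 (SE 0.67, adjusted p = 0.035), with 1.27 to 3.62 over the 8 leave-one-out fits. The list median of 2.22 was 0.84 without the divergent library, with 2 of the 3 calls left, and the part of RNA quality in it was not tested. The 3 calls were lost in 6, 6 and 7 of the leave-one-out fits for mt-Nd1, mt-Nd2 and mt-Nd4.

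Lists of signalling and metabolism held few edgeR calls. Of 16 MAPK feedback genes, 1 was called higher and 1 lower. Etv1, an ETS factor, had 23.3 and 31.7 CPM in shNKX2-1 4-OHT, 13.6 and 12.4 CPM in shScramble 4-OHT, 4.25 and 3.38 CPM in shNKX2-1 vehicle and 5.01 and 5.27 CPM in shScramble vehicle organoids, a joint log2 change of 2.42 (SE 0.30, adjusted p = 0.00296). The immediate early gene Egr1 had 18 and 20.9 CPM in shNKX2-1 4-OHT, against 89.3 and 66.1 CPM in shScramble vehicle, a change of -2.0 (SE 0.31, adjusted p = 0.00799). Of 9 Wnt targets, Sp5 was called lower. Sp5, a direct target of beta-catenin, had 0 and 0 CPM in shNKX2-1 4-OHT, 0.367 and 0.0645 CPM in shScramble 4-OHT, 18 and 20.9 CPM in shNKX2-1 vehicle and 1.59 and 1.22 CPM in shScramble vehicle organoids, so the hairpin alone stood above the control and no read was left under both, at least 12.7-fold lower at the floor of 3 counts. Of 14 YAP and TEAD targets, Crim1 was called higher, at 111 and 66.6 CPM in shNKX2-1 4-OHT, 35.7 and 27.6 CPM in shScramble 4-OHT, 95.2 and 77.1 CPM in shNKX2-1 vehicle and 24.6 and 27.3 CPM in shScramble vehicle organoids and a log2 change of 1.77 (SE 0.30, adjusted p = 0.0111). Both shNKX2-1 pairs lay above both shScramble pairs. Of 16 hypoxia and glycolysis genes, the angiogenic factor Vegfa and the ankyrin repeat gene Ankrd37 were lower, at log2 changes of -1.99 (adjusted p = 0.019) and -3.16. The list median was -1.37 in the joint change (-1.12 without the divergent library), -1.44 for 4-OHT and -0.11 for the hairpin. By edgeR 9 members had an unadjusted p under 0.05, while DESeq2 called 7 and limma 0. The list summed to 4437 and 3449 CPM in shNKX2-1 4-OHT and to an uneven 4449 and 12270 CPM in shScramble vehicle. Of 16 stress response genes, Herpud1, a protein of endoplasmic reticulum degradation, was lower at -1.28. Single calls in lists of 14 to 16 genes lie near the share called over all genes (4.32% higher and 3.63% lower). The calls of Sp5 and Crim1 were lost without either shScramble vehicle library, those of Herpud1 and Ankrd37 in at least 6 of the 8 leave-one-out fits, that of Egr1 without shScramble vehicle replicate 1 and that of Vegfa without shScramble vehicle replicate 2.

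Few genes of epithelial identity in the general sense were called. Of 16 junction and simple keratin genes, Cldn3 was called higher and the splicing factor Esrp2 lower (2 in all by DESeq2 and 1 by limma). These counts lie near the shares over all genes, 4.32% higher and 3.63% lower. Esrp2 had 85.5 and 56.5 CPM in shNKX2-1 4-OHT, against 199 and 184 CPM in shScramble vehicle, a log2 change of -1.43 (SE 0.25, adjusted p = 0.0136). Cdh1, the cadherin of adherens junctions, had 791 and 876 CPM in shNKX2-1 4-OHT, against 1139 and 1061 CPM in shScramble vehicle (log2 change -0.40, adjusted p = 0.285). Of 7 mesenchymal transition genes, Tgfb2 (-1.16) and Sparc (-1.51) were lower, where 3.63% of all genes were. Vim, the mesenchymal filament vimentin, was higher (4.32% of all genes) at 1.56 and 3.19 CPM in shNKX2-1 4-OHT, against 0.295 and 0.135 CPM in shScramble vehicle. Its log2 change was 3.39 (SE 0.67, adjusted p = 0.0212) at low levels. DESeq2 called 3 and limma 0 of the 7. Vim lost its call without the divergent library, and its call and that of Tgfb2 were each lost in 6 of the 8 leave-one-out fits. Sparc lost its call without any 1 of the 4 shScramble libraries and Esrp2 without either shScramble vehicle library. None of 20 cell cycle genes was called by edgeR, with 1 at an unadjusted p under 0.05 and 0 called by DESeq2 or limma. Birc5, a mitotic regulator and the one with the smallest adjusted p, had 45.3 and 116 CPM in shNKX2-1 4-OHT, 72.3 and 85.0 CPM in shScramble 4-OHT, 17.8 and 33.0 CPM in shNKX2-1 vehicle and 37.2 and 33.4 CPM in shScramble vehicle organoids and a log2 change of 1.19 (adjusted p = 0.149). None of 14 transitional alveolar genes was called (2 at an unadjusted p under 0.05, 1 called by DESeq2, 0 by limma), with Itgb6, an integrin chain that activates TGF-beta, at 21.5 and 35.8 CPM in shNKX2-1 4-OHT, against 71.5 and 50.5 CPM in shScramble vehicle. None of 4 ciliated genes was called either (2, 1 and 0 in the same terms), with Pifo at 0.406 and 0.327 CPM in shNKX2-1 4-OHT, against 1.24 and 1.89 CPM in shScramble vehicle, and the 1 neuroendocrine gene tested, Syp, had 0.406 and 0.818 CPM in shNKX2-1 4-OHT, against 0.531 and 0.27 CPM in shScramble vehicle. Without the divergent library, 1 transitional alveolar gene was called higher and 1 lower. No cell cycle gene was then called, and that list's median joint log2 change was -0.427, against 0.135 with all 8 libraries.

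Lists of other cell types gave no edgeR call in the joint change. For fibroblasts, the collagen gene Col1a1 had 0.406 and 0.164 CPM in shNKX2-1 4-OHT, against 0.413 and 0.338 CPM in shScramble vehicle. For leukocytes, the phosphatase gene Ptprc had 0.609 and 1.31 CPM in shNKX2-1 4-OHT, against 0.59 and 0.743 CPM in shScramble vehicle. The endothelial factor Vwf had 1 read in shNKX2-1 4-OHT and 22 in shScramble vehicle. DESeq2 and limma called 0 members of those 3 lists, and 1, 0 and 0 members had an unadjusted p under 0.05 for endothelial, fibroblast and leukocyte genes. Tpsab1, a tryptase of mast cells, had 0.88 and 0.164 CPM in shNKX2-1 4-OHT, 28.3 and 37.3 CPM in shScramble 4-OHT, 0 and 0.125 CPM in shNKX2-1 vehicle and 4.07 and 1.62 CPM in shScramble vehicle organoids. Its shScramble 4-OHT pair lay above the other 6 libraries, and its 4-OHT log2 change of 3.52 was called (adjusted p = 0.0198). Its joint log2 change was -2.38 (adjusted p = 0.0908), 2 of 2 mast cell genes tested had an unadjusted p under 0.05, 1 was called by DESeq2 and 0 by limma, and the defining mast cell markers were at 0 in all 8 libraries.

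**Figure D4:**
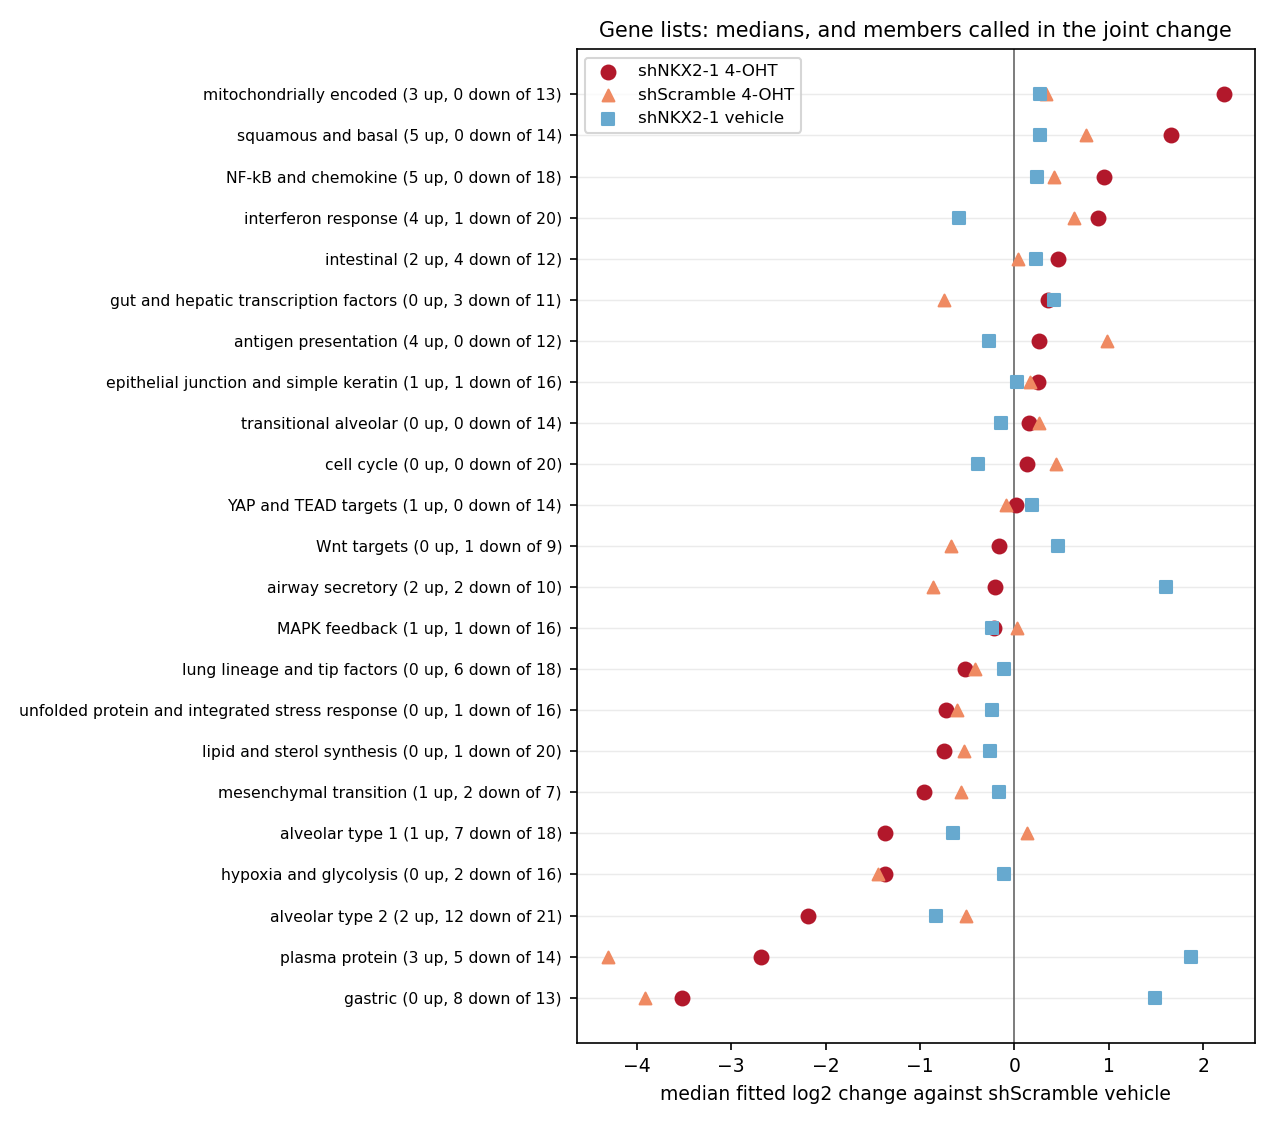
Median fitted log2 change against shScramble vehicle of each gene list with at least 7 members tested, in shNKX2-1 4-OHT (circles), shScramble 4-OHT (triangles) and shNKX2-1 vehicle (squares), with the members called higher (up) and lower (down) in the joint change in brackets. Alveolar lists lie left of both single changes (medians of -2.19 and -1.37), gastric genes lie beside 4-OHT (-3.52 and -3.91) with the hairpin on the other side of 0 (1.49), and mitochondrially encoded genes lie furthest right (2.22).

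The joint change was then set beside the sum of the single log2 changes, gene by gene. A gene on which the treatments act independently on the log scale, with equal knockdown under vehicle and 4-OHT, would have a difference of 0. No gene passed in a test of that difference over the same 14465 genes (0% called by edgeR, smallest adjusted p = 0.159), with 782 at an unadjusted p under 0.05 where evenly spread p-values give 723. DESeq2 called 89 genes (45 with a positive and 44 with a negative difference) and limma with quality weights called 0. Without the divergent library 7 genes passed, Sfta2 and Muc5b among them with differences of -2.56 and -3.81, and with that library alone in its group 3552 did. The median SE of the difference was 0.495 on the log2 scale. A p that misses the threshold does not show that the joint change equals the sum. Nkx2-1 averaged 315 CPM in shNKX2-1 vehicle against 426 CPM in shScramble vehicle. With 4-OHT it averaged 194 CPM in shNKX2-1 against 383 CPM in shScramble. Its own difference from the sum was -0.545 (SE 0.31) and did not pass edgeR's test (adjusted p = 0.866). The part of unequal knockdown in the differences of other genes was not tested.

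Among the 625 genes called higher the median log2 change was 2.35 in the joint change and 2.02 for the sum, with 1.19 for 4-OHT and 0.73 for the hairpin. Among the 525 called lower the medians were -2.61 and -2.13, with -1.77 for 4-OHT and -0.23 for the hairpin. The joint change went beyond the sum in 382 of the higher and 339 of the lower genes and fell short of it in 243 and 186. Those genes were chosen by the joint change itself, which favours large joint values, and the 3 changes share their control libraries, so these counts are descriptions. Across named genes, 3 arrangements recurred in the values. In the first, the joint level lay far below both single levels, as for Sftpb, Sfta2, Ager and Ffar4 (differences of -2.97, -2.93, -4.12 and -4.42). In another, the hairpin pair lay above the control pair with vehicle while all 4 libraries given 4-OHT lay below it, as for Muc5ac and Muc5b (-3.23 and -2.90). In the last, the joint change was no larger in size than that of 4-OHT alone, as for Epas1, Cldn3 and Cdhr2 (-2.91, -2.78 and 2.51). Of the 26 genes named by rule with an unadjusted p under 0.05 for the difference, DESeq2 called 10, those being Cdhr2, Epas1, Sfta2, Ffar4, Sftpb, Muc5ac, Muc5b, Ager, Sp5 and Ddx58.

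**Figure D5:**
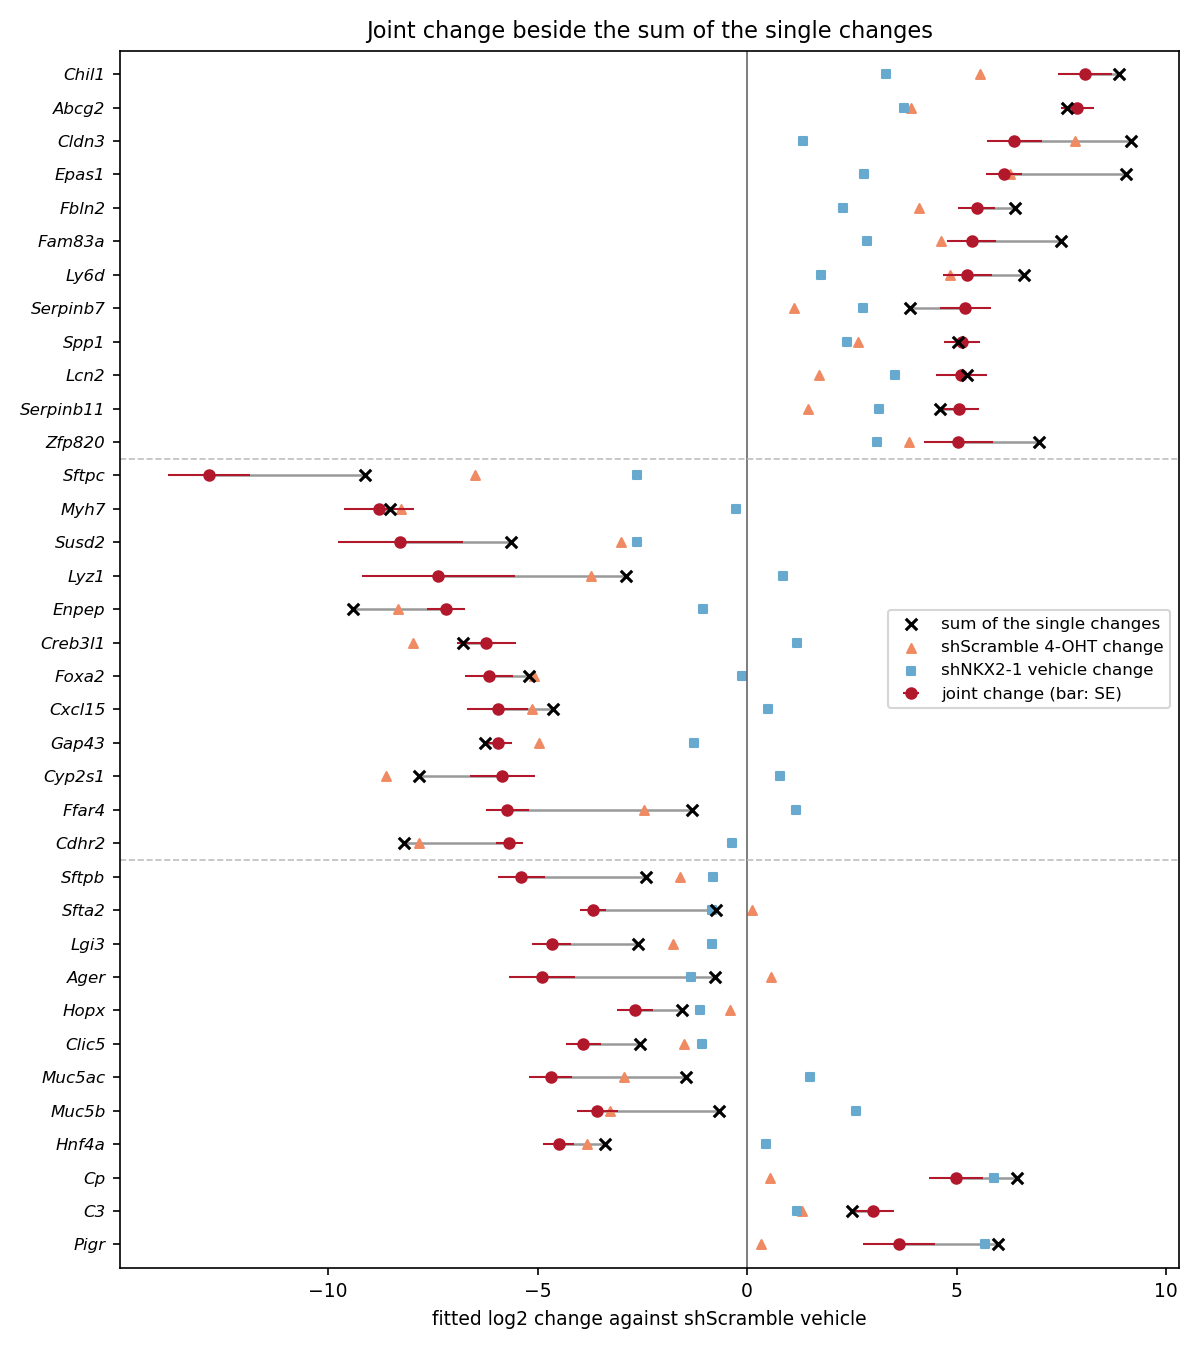
Fitted log2 change against shScramble vehicle for named genes: the joint change (circles, bars are SE), the 4-OHT change (triangles), the hairpin change (squares) and the sum of those single changes (crosses), with a grey line from joint change to sum. Abcg2 and Spp1 lie on their sums (7.88 and 7.64, 5.12 and 5.03), while Ager (-4.90 and -0.77) and Sfta2 (-3.68 and -0.74) lie far below theirs.

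Genes called in the joint change were finally read in 2 other tumours. Lines 1027D and 1292B are double-floxed organoids without a hairpin, so they carry the 4-OHT treatment only, and their 6 libraries were used as a description with no test. Line 1027D has 2 libraries per treatment. Line 1292B has a single vehicle and a single 4-OHT library, so its differences carry no measure of spread. Of the 525 joint increases measured there, 336 (64%) were higher with 4-OHT in both lines and 54 (10.3%) lower in both, where 29.5% of all 12866 genes were higher in both. Of the 469 joint decreases, 306 (65.2%) were lower in both and 33 (7.04%) higher in both, where 30.8% of all genes were lower in both. Enpep had log2 differences of -4.10 and -2.10 and Sftpc of -4.76 and -5.87 in 1027D and 1292B. Ager had 1.17 and -0.73 and Sfta2 0.74 and -0.04, beside 4-OHT changes of 0.57 and 0.11 in line 1027B, and Chil1 had -2.55 and 1.87. Abcg2 had 1.86 and 3.52. Epas1, high under 4-OHT in line 1027B, had -1.01 and -0.23, lower in both other lines. Cdhr2 had -1.94 and 0.98 and Fam83a -1.30 and 0.18, with opposite signs in the 2 lines.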

How the data were processed

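RNA was measured as gene counts in 8 libraries of line 1027B, 2 in each of 4 groups taken from the labels. The authors deposited raw counts per gene, and per the submitters' processing notes STAR 2.7.6a, featureCounts 1.5.1, DESeq2 and GRCm38 were named, with no role or order. No source used here gives the strand setting or the handling of reads that map to several places, so close paralogs and overlapping genes are uncertain. Per the labels' protocols, RNA was column-purified and libraries were directional.

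The members and gene lists were chosen with earlier results of these data known. Counts were tested with edgeR 4.0.16 in R 4.3.3: default low-count filter (14465 genes kept of 55487 IDs, 99.4% of which have a symbol), TMM scaling, 1 quasi-likelihood fit over the 8 libraries with 4 group means, and Benjamini-Hochberg adjustment over all genes tested, at a threshold of 0.05. The joint change is shNKX2-1 4-OHT minus shScramble vehicle, the 4-OHT change shScramble 4-OHT minus shScramble vehicle, and the hairpin change shNKX2-1 vehicle minus shScramble vehicle. The difference from the sum is a contrast of the same fit. The script was tested on simulated data. Named genes were the targets, the 12 per direction with the largest called joint change at a mean log2 CPM of at least 2, and, in each list, up to 4 called members by smallest adjusted p in the more frequent direction and up to 2 in the other. Members named beyond this to complete a count (such as Itih4, Ttr, Sprr1a, Tnfaip2, Foxp1, Cebpa, Gkn3 and Sult1c2), and Sftpd, Cdh1, Krt14, Krt16, Cldn18 and Scnn1g, were chosen after their values were seen. Intervals are exact at 95%, floors are 3 counts, and both cover counting error only. Alternatives were DESeq2 1.42.0, RLE scaling, no filter, no mitochondrial genes, the compared libraries alone, each library left out, and, added after seeing the data, limma 3.58.1 with quality weights and the list counts without the divergent library. Some genes are not reported here.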

Additional observations from a re-analysis of the deposited data

How the results depend on the processing

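The joint change called 1150 genes, 1977 with DESeq2, 2603 with no filter on low counts, 514 from the 4 compared libraries alone, 176 with limma quality weights and 316 to 6940 with each library left out. The 4-OHT change called 627, and 1092, 1372, 1602, 2119 and 138 to 1655 under the same settings. The hairpin change called 34, and 284, 461, 90, 245 and 0 to 275. The difference from the sum called 0 with edgeR, 89 with DESeq2, 227 with no filter and 0 to 3552 with each library left out. RLE scaling and removal of mitochondrial genes left each count within 1.5 times. The 176 joint calls with limma quality weights were 142 higher and 34 lower, and 63 named joint calls were lost under that setting. With each library left out the joint log2 change ran from -0.0246 to 1.124 for Syp, from -1.2 to 0.0792 for Col1a1 and from -0.149 to 0.934 for Ptprc, none of them called, and each had the opposite sign without the divergent library. The cause of these differences was not tested. Of 90 named joint calls, 44 held in all 8 leave-one-out fits. No paired analysis was possible because the labels give no replicate numbers. Limits are 2 libraries per group, 1 line, the unequal spread of the shNKX2-1 4-OHT pair, and counts near 0 that make fitted folds depend on the prior count.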
